A study of Drosophila melanogaster with 6 samples.

Results

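The genes described here encode the thin filament of Drosophila muscle: 4 actins (Act57B, Act79B, Act87E and Act88F), 2 tropomyosins (Tm1 and Tm2), troponin T (up), troponin I (wupA) and 2 troponin C genes (TpnC41C and TpnC73F). They were found by their symbols in the platform's probe-to-gene annotation, taking every probe set that names 1 gene only. This gave 8 probe sets of 7 of the 10 genes, out of 18769 probe sets tested and 11982 genes measured. Act57B, Tm1 and wupA had no such probe set and were not analysed here.

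RNA came from whole prepupae of Drosophila melanogaster at 0 h, the moment at which the larva has formed its puparium. The mutant animals were homozygous for the sox14L1 allele in the w1118 background, and the control animals were w1118, so both genotypes carry the white mutation. Sox14 encodes an HMG-box transcription factor. Each genotype was assayed on 3 Affymetrix Drosophila Genome 2.0 arrays, each with RNA pooled from 10 prepupae. Separate cultures are not stated for the replicates, and the p-values therefore cover only the spread between these 6 samples, which may be technical. Values are log2 RMA values, changes are mutant minus control with their standard error, and a change was called where limma's p, adjusted by Benjamini-Hochberg over all probe sets tested, was under 0.05. RMA scales the arrays to each other, so a change is relative to the other transcripts on the arrays and is not an amount per animal.

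In the sarcomere, actin monomers polymerise into a filament on which myosin heads of the thick filament pull. Tropomyosin lies along the actin filament and, together with the troponin complex, keeps myosin off it at rest. Troponin C binds calcium, troponin I inhibits the interaction of actin with myosin, and troponin T anchors the complex on tropomyosin. Drosophila has several genes for actin and troponin C, used in different muscles and stages. At pupariation the animal holds the working muscles of the larva, many of which break down during metamorphosis, while the muscles of the adult form later.

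Most of the measured thin filament genes were higher in the sox14 mutant. Of 7 measured, 5 rose: Act88F by 2.04 ± 0.16, Tm2 by 1.88 ± 0.12, Act87E by 1.31 ± 0.17, up by 1.19 ± 0.11 and TpnC73F by 1.15 ± 0.08. None fell in limma, and none was lower at an unadjusted p under 0.05 either. Act79B and TpnC41C were not called. Of all 11982 genes 24.7% were called, with 11.3% called higher and 13.4% called lower in the mutant. Counted as probe sets, 5 of 8 were called, all higher, where 19.1% of all probe sets were called, 8.64% higher and 10.4% lower. The median change of the 7 genes was 1.19, against -0.03 over all genes. In whole animals, a larger share of muscle tissue and more RNA per muscle cell cannot be told apart.

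The arrays agreed closely within each genotype, with correlations between 0.993 and 0.996, and the highest correlation between a mutant and a control array was 0.976. The first mutant array had a 3' minus 5' difference of 1.77 for the actin control probe sets, against 0.54 to 0.88 on the other 5 arrays, so values with and without it are given below. Sox14 itself averaged 10.58 ± 0.21 on the mutant arrays, against 11.57 ± 0.16 on the control arrays (SD, n = 3 each), a change of -0.99 ± 0.13 with an adjusted p of 0.00101 in limma.

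**Figure D1:**
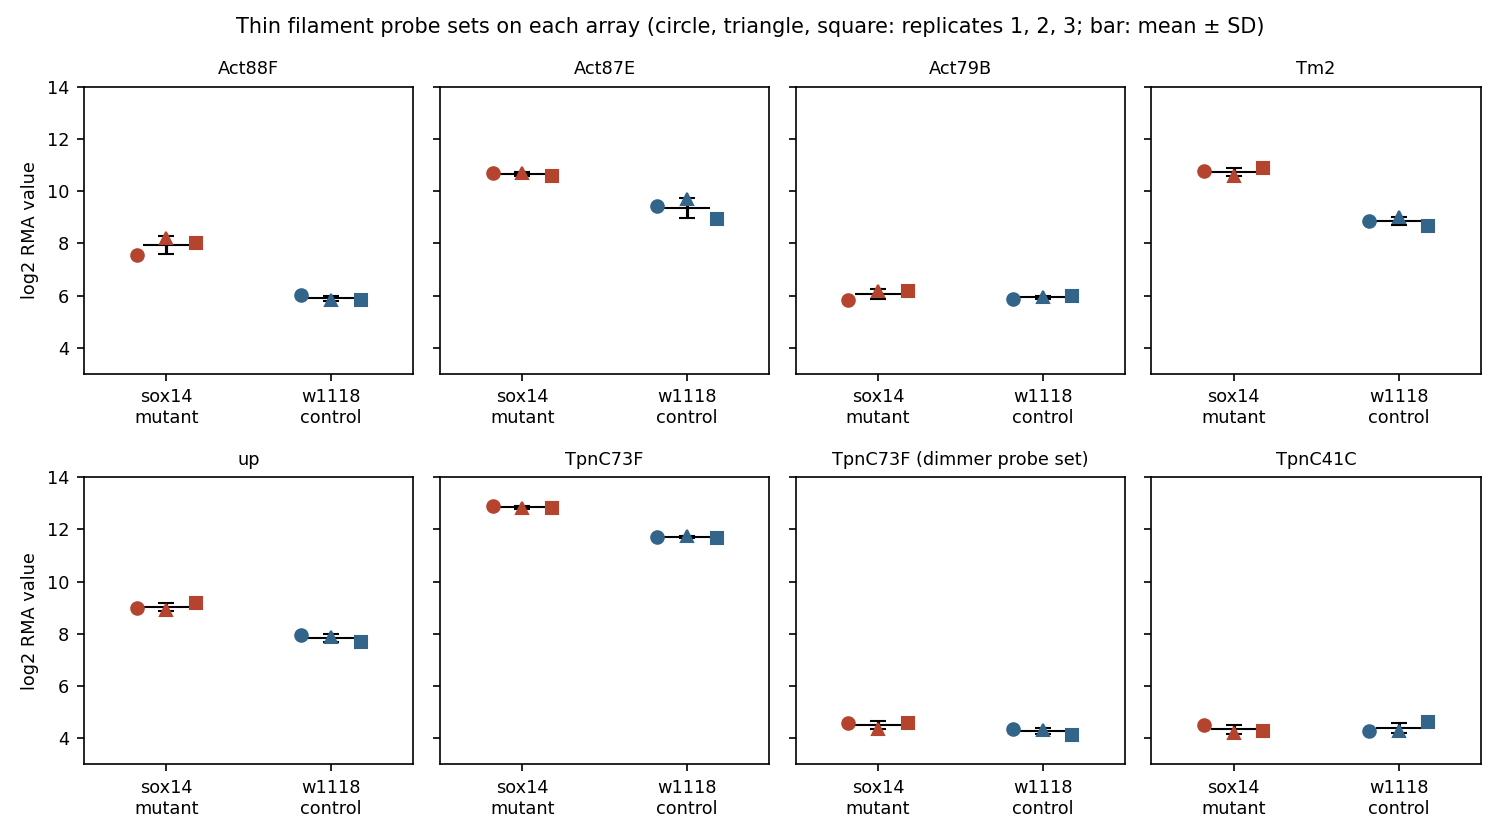
Log2 RMA values of the 8 thin filament probe sets on each array, with the 3 sox14 mutant arrays (red) left of the 3 w1118 control arrays (blue) in each panel. Points are arrays, marked by replicate number, and black bars are means ± SD. The genotypes do not overlap for Act88F, Act87E, Tm2, up and the brighter TpnC73F probe set, and they overlap in the other 3 panels.

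Among the actins, Act88F, known for its use in the indirect flight muscle of the adult, showed the largest change. It read 7.54, 8.20 and 8.03 on the mutant arrays, against 6.01, 5.82 and 5.84 on the control arrays. All 3 mutant arrays lay above all 3 control arrays, with a gap of 1.53 between the lowest mutant and the highest control array. Over all genes, the mutant arrays lay wholly above the control arrays in 18.3%, and the groups did not overlap in either direction in 42.8%. The rise of 2.04 had a 95% interval of 1.66 to 2.41, a fold of 4.10 with an interval of 3.17 to 5.31, and an adjusted p of 5.58e-05 in limma. Its change ranked at 140 among the 11982 genes, counted from the largest rise. On 2 of 3 control arrays Act88F lay in the arrays' low range. This range was taken as the values up to the 95th percentile of 97 AFFX-Dm control probe sets, and it ended between 5.75 and 6.01 depending on the array. RMA compresses changes in that range, so the size of its rise is uncertain.

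Act87E, an actin of larval and adult body muscles, read 10.69, 10.70 and 10.59 on the mutant arrays and 9.42, 9.68 and 8.94 on the control arrays. The mutant arrays lay within a narrow band, while the control arrays were spread, with the third the lowest. The SD over mutant arrays was 0.06 and over control arrays 0.37, where the median SD of all probe sets was 0.11 for mutant and 0.13 for control arrays. Its rise of 1.31 had an interval of 0.92 to 1.70 (2.48-fold, adjusted p = 0.000917 in limma), and it was 1.10 without the third control array. The probe set is of the type whose name ends in s_at, which in Affymetrix's naming is shared by several transcripts. The coding sequences of actin genes are closely alike, and whether transcripts of other actin genes add to this reading was not tested.

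Act79B, an actin of certain adult muscles such as those of the leg and thorax, read 5.83, 6.19 and 6.16 on the mutant arrays, against 5.87, 5.94 and 5.98 on the control arrays. The groups overlapped, since the first mutant array was the lowest of the 6. The difference of 0.13 ± 0.11 did not pass the test (adjusted p = 0.501 in limma), and its interval ran from -0.13 to 0.39. It lay in the low range on 1 mutant array and all 3 control arrays, where RMA compresses differences, so the interval is that of the reading and bounds no change of the transcript.

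The changes of the actins were set against each other within each array, which does not compare their levels. Act88F changed by 0.73 ± 0.30 more than Act87E, but the arrays of the genotypes overlapped and the 95% interval, from -0.11 to 1.56, includes 0 (2-sided exact permutation p = 0.2, adjusted 0.2 over 4 pairs of paralogs). Because 3 arrays against 3 give an exact p of 0.1 at the smallest, no pair could pass. The reading of Act79B changed less than that of Act88F, by 1.90, and than that of Act87E, by 1.18, with no overlap of the genotypes (exact p = 0.1 each, adjusted 0.133). Act79B lay in the low range on 4 of 6 arrays, and Act88F on 2 of 3 control arrays. All these differences, that of Act88F and Act87E included, therefore describe readings and give no size for the difference between transcripts. Those with Act79B, whose reading hardly changed, largely repeat the rises of Act88F and Act87E.

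The arrays also carry Affymetrix's own control probe sets for a Drosophila actin transcript, which lay outside the tests. Their 3' segment read 13.40, 13.61 and 13.56 on the mutant arrays and 13.52, 13.51 and 13.18 on the control arrays. The genotypes overlapped, and the mean difference was 0.12 (2-sided exact permutation p = 0.5). The middle segment differed by -0.26, and by -0.06 without the first mutant array (exact p = 0.5 with all arrays). The 5' segment read 11.62 on the first mutant array and 12.73 and 12.79 on the other mutant arrays, against 12.77, 12.65 and 12.64 in the control, a mean difference of -0.31 that was 0.07 without the first mutant array (exact p = 0.9 with all arrays). The sources used here do not give the actin gene that these controls report. The single-gene annotation held no probe set for the cytoplasmic actins Act5C and Act42A, so they were not analysed here.

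Tm2, one of the tropomyosins, read 10.78, 10.57 and 10.87 in the mutant, against 8.87, 9.02 and 8.68 in the control. The gap between the genotypes, 1.55, was wider than the whole spread within either of them. Its rise of 1.88 had an interval of 1.60 to 2.16, a fold of 3.68, and an adjusted p of 1.64e-05 in limma, the smallest among the thin filament genes. This probe set too is of the s_at type, and whether Tm1 transcripts add to its reading was not tested.

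Troponin T, encoded by up, read 9.00, 8.90 and 9.18 in the mutant, against 7.96, 7.89 and 7.67 in the control. All mutant arrays were above all control arrays, by at least 0.94. The rise of 1.19 had an interval of 0.92 to 1.45 (2.28-fold, adjusted p = 0.000169 in limma). The gene is spliced into several forms in different muscles, and its probe set, of the a_at type, reports several transcripts of the gene together.

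TpnC73F, a troponin C gene of larval and adult body muscles, was near the top of the arrays' range in its brighter probe set. That probe set read 12.90, 12.82 and 12.80 in the mutant, against 11.70, 11.73 and 11.65 in the control. The SD of 0.05 over mutant arrays and 0.04 over control arrays was the smallest among the 8 probe sets in each genotype, and the gap between genotypes was 1.07. The rise of 1.15 had an interval of 0.96 to 1.34, a fold of 2.22, and an adjusted p of 3.44e-05 in limma. The second TpnC73F probe set was dim, with 4.60, 4.33 and 4.57 in the mutant and 4.35, 4.30 and 4.13 in the control. It lay in the low range on all 6 arrays, its groups overlapped by 0.02, and its difference of 0.24 ± 0.11 did not pass the test (adjusted p = 0.179 in limma).

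TpnC41C, known as a troponin C gene of adult muscle, read 4.52, 4.21 and 4.29 in the mutant, against 4.29, 4.26 and 4.62 in the control. It lay in the low range on all 6 arrays and the groups overlapped. The difference of -0.05 ± 0.13 did not pass the test (adjusted p = 0.838 in limma), with an interval from -0.35 to 0.25. At this level the arrays give no measured amount to compare. The reading of TpnC73F changed by 1.20 more, with no overlap of the genotypes (2-sided exact permutation p = 0.1, adjusted 0.133 over 4 pairs of paralogs). That value describes readings and gives no size for the difference between the transcripts. Since the reading of TpnC41C hardly changed, the difference and its lack of overlap largely repeat the rise of TpnC73F.

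**Figure D2:**
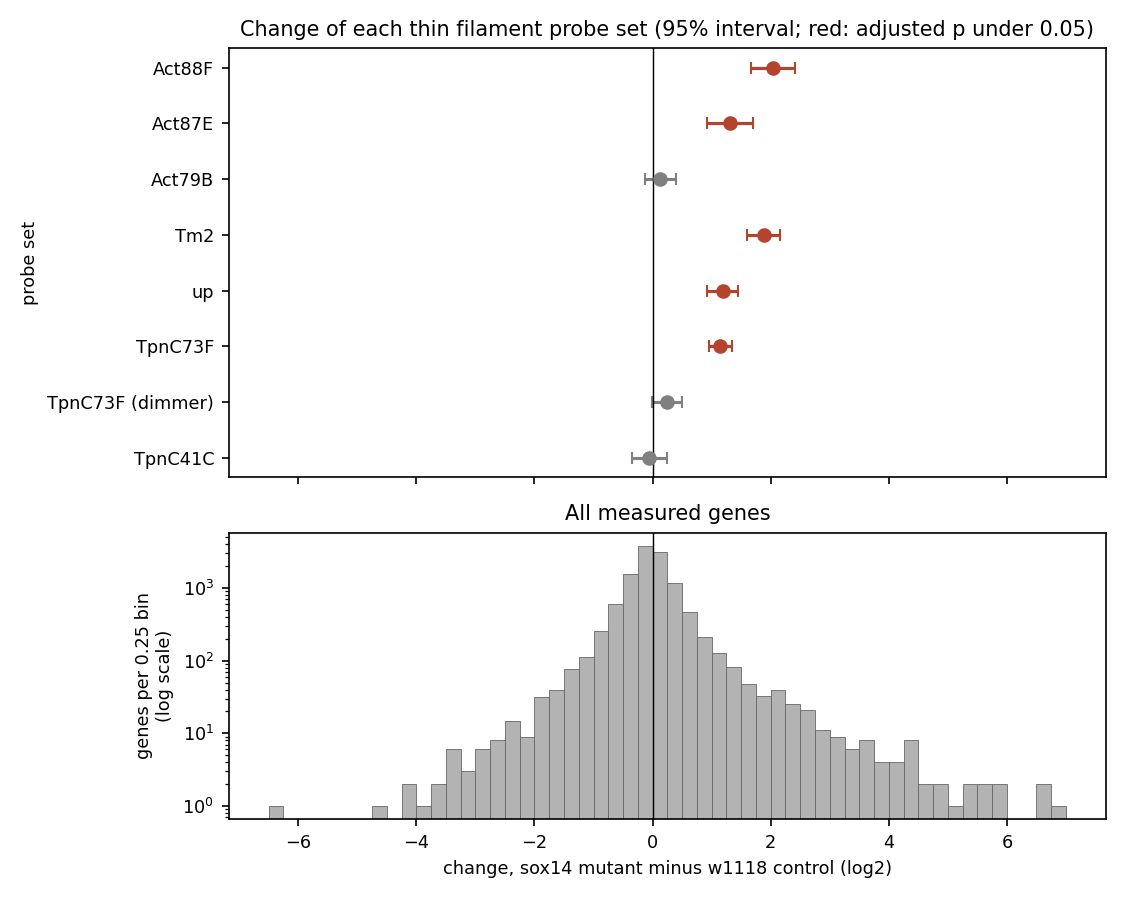
Upper panel: change of each thin filament probe set on the log2 scale, sox14 mutant minus w1118 control, with its 95% interval from limma, in red where the adjusted p was under 0.05. Lower panel: changes of all 11982 measured genes in bins of 0.25, with counts on a log axis. The 5 called probe sets lie between 1.15 and 2.04, in the right tail of all genes, and the other 3 have intervals that include 0.

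The 5 called genes all lay far in the upper tail of the changes over all genes. Act88F exceeded 98.8% of genes, Tm2 98.7%, Act87E 97.6%, up 97.2% and TpnC73F 97.0%. Act79B exceeded 70.9% and TpnC41C 46.6%. The ranks of Act87E, up and TpnC73F, at 290, 340 and 356, were close together, and the intervals of these 3 changes overlapped.

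By RefSeq's annotation of Release 6 plus ISO1 MT, none of the 5 genes that rose lies on chromosome 2, where Sox14 lies on the arm 2R. Act88F, Act87E and Tm2 lie on 3R, TpnC73F and Act79B on 3L, and up on the X. TpnC41C lies on 2R. On 3R, 11.6% of the measured genes were called higher in the mutant, on 3L 11.2% and on the X 6.83%. Tm2 and Act88F are near each other on 3R, with 36 annotated genes that start between their starts. Of the 28 of these that were measured, 3 were called higher and 4 lower, and their median change was -0.03. The largest rise among them, 0.90 ± 0.08 in Nagk (adjusted p = 0.000122 in limma), was smaller than the rise of either Tm2 or Act88F; Nagk was chosen after its value was seen.

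No array moved all measured thin filament genes in the same direction. The first and the third control arrays did so for the 5 genes that rose. The exceptions there were Act79B and TpnC41C, which lay in the low range on all 3 control arrays. On the first mutant array Act88F lay 0.38 below the mutant mean and Act79B 0.23 below, while Act87E, Tm2 and TpnC73F lay 0.03, 0.04 and 0.06 above it. The first control array was above the control mean for all 5 genes that rose, with a median of 0.07. The third control array was below it for all 5, by 0.04 in TpnC73F to 0.41 in Act87E, with a median of -0.17. The median deviation of all genes on that array was 0.02. Without the third control array the rises were 2.01 in Act88F, 1.79 in Tm2, 1.10 in Act87E, 1.10 in up and 1.13 in TpnC73F. Without the first mutant array the same changes were 2.23, 1.86, 1.29, 1.20 and 1.12. All 5 remained called in both cases.

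**Figure D3:**
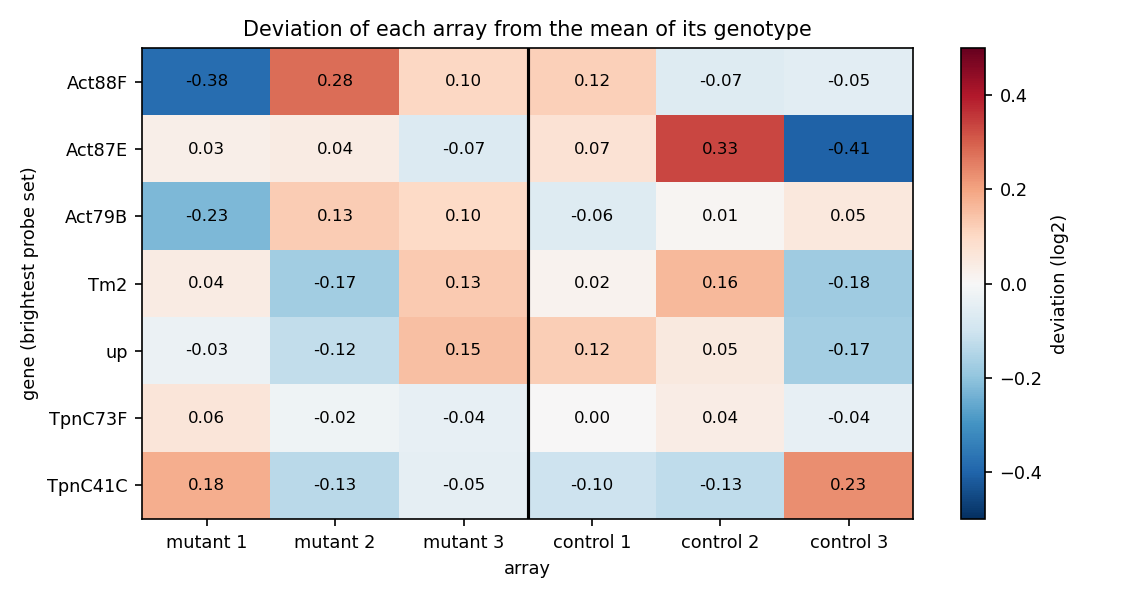
Deviation of each array from the mean of its own genotype, in log2 units, for the brightest probe set of each of the 7 thin filament genes (rows), with mutant arrays left and control arrays right of the black line. Blue is below and red above the mean. The third control array is below its mean for the 5 genes that rose, down to -0.41 in Act87E, and the first mutant array is low for Act88F at -0.38.

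Genes of proteins that bind or cap the thin filament went both ways. Of 7 measured genes in a list of accessory proteins and further troponin C genes, 2 rose and 3 fell, with a median change of -0.05, where 11.3% of all genes were called higher and 13.4% lower. Mp20, which encodes a calponin-like muscle protein, rose by 2.28 ± 0.11, with 12.46 ± 0.10 in the mutant and 10.19 ± 0.16 in the control (adjusted p = 3.51e-06 in limma). The flight muscle troponin C gene TpnC4 read 4.87 ± 0.52 in the mutant, against 3.93 ± 0.08 in the control, and was called higher (adjusted p = 0.0206 in limma). All 6 arrays lay in the low range, so the size cannot be read, and it was not called without the first or the third control array.

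The accessory genes that fell were tmod, sals and Gel. tmod, the tropomodulin gene, whose protein caps pointed ends, read 10.53 ± 0.12 in the mutant, against 11.77 ± 0.09 in the control, a fall of 1.25 ± 0.10 on the log2 scale (adjusted p = 5.75e-05 in limma). Its dimmer probe set, at 6.47 in the mutant and 8.46 in the control, fell by 1.99 ± 0.18 (adjusted p = 0.000119). sals, known in Drosophila for the lengthening of thin filaments from their pointed ends, read 8.02 ± 0.25 in the mutant, against 8.89 ± 0.26 in the control, with a change of -0.87 ± 0.16 (adjusted p = 0.00679). Gel, the gene of the actin-severing protein gelsolin, fell by 0.48 ± 0.09 (adjusted p = 0.00718). The calls of tmod, sals and Gel were made with any 1 array left out. tsr, which encodes cofilin, and flr, which encodes an actin-interacting protein that works with cofilin, had differences of 0.04 and -0.05 and were not called.

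The list of other actin and actin-related genes left little to read. Arp8 (-0.28 ± 0.10, adjusted p = 0.0921 in limma) and Arp10 (-0.09 ± 0.12, adjusted p = 0.662) were not called. Its remaining measured entry, Actbeta, entered the list by its symbol and encodes a signalling protein of the activin family, not an actin; it rose by 0.96 ± 0.16 (adjusted p = 0.00353).

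Some genes of the thick filament and its neighbours rose as well. Of 15 measured thick filament, titin-like and Z-disc genes, 7 rose and none fell, with a median change of 0.18, where 11.3% of all genes were called higher and 13.4% lower. The 7 were bt, which encodes projectin (2.02 ± 0.17), Mlp60A, the gene of a muscle LIM protein (1.75 ± 0.13), the myosin light chain genes Mlc1 (1.73 ± 0.13) and Mlc2 (1.46 ± 0.16), the paramyosin gene Prm (1.43 ± 0.14), the myofilin gene Mf (1.02 ± 0.10) and sls, a titin-like gene (0.68 ± 0.18). Mlc2 lay in the low range on all 3 control arrays, so the size of its rise is uncertain. Prm had a second, dimmer probe set that changed by 2.73 ± 0.17, with a mean of 8.78 in mutant and 6.05 in control arrays, 2 of which lay in the low range. The second Mf probe set, at 11.11 in the mutant and 9.71 in the control, changed by 1.40 ± 0.10 (adjusted p = 2.86e-05 in limma). The other Mlp60A probe sets, with differences of 0.03 and -0.17, were not called and were dim, with 2 and 3 mutant arrays and all control arrays in the low range. Mlp84B, the gene of another muscle LIM protein, had a difference of -0.09 ± 0.20 and was not called. The Z-disc genes Actn (alpha-actinin), Zasp52 and Zasp66 had differences of -0.02 ± 0.11, 0.18 ± 0.13 and -0.17 ± 0.08 and were not called. Neither was fln, the gene of the flight muscle protein flightin, which read 4.44 ± 0.01 in the mutant, against 4.56 ± 0.12 in the control. The call of sls in its brightest probe set was lost without the first or the second mutant array or the first or the second control array. Its other probe sets changed by 0.79 ± 0.21 and 0.60 ± 0.09, and the last of these was called with any 1 array left out; both had control arrays in the low range. Mhc, the gene of muscle myosin heavy chain, had no single-gene probe set and was not analysed here.

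Lists of other functions of muscle were read against the same shares, 24.7% of all genes called, 11.3% higher and 13.4% lower. Of 9 measured genes of excitation and calcium handling, 2 rose and 1 fell, with a median of 0.03. The sodium-calcium exchanger gene Calx, at 5.16 in the mutant against 4.31 in the control, and the junctophilin gene jp, at 5.12 against 4.28, were called higher, but lay in the low range on all 6 arrays, so the sizes cannot be read. The calcium-binding protein gene Scp2 fell by 0.60 ± 0.13, a call lost without the first or the third control array. SERCA counted as not called by its brightest probe set (-0.55 ± 0.17), but another was called higher (0.48 ± 0.12, adjusted p = 0.0211 in limma). That call was lost without the first or the second mutant array or the second or the third control array. A dimmer Ca-beta probe set was called higher (0.59 ± 0.11), but lay in the low range on all 6 arrays. Of 18 attachment and costamere genes 3 rose and 1 fell, with a median of 0.23, a share of calls near that of all genes. These were the integrin gene if (0.78 ± 0.11), Msp300 (0.71 ± 0.14), which encodes a nesprin that links nuclei to the cytoskeleton, the dystroglycan gene Dg (0.69 ± 0.12) and, lower, the vinculin gene Vinc (-0.50 ± 0.12), whose call was lost without the third control array and without the second or the third mutant array. Of the 6 Msp300 probe sets 2 were called, and 4 were not, with differences from -0.13 to -0.07. Among those 4, the probe set at -0.09 ± 0.14 lay above the low range on all arrays.

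Among 11 measured regulators of muscle transcription and splicing, 2 rose and none fell, with a median of 0.22, no larger a share of calls than among all genes. lmd, which encodes a regulator of myoblast fate, read 5.28 in the mutant, against 4.70 in the control, and was called higher within the low range, where its size cannot be read. mbl, a splicing regulator of muscle, changed by 0.34 ± 0.10 in the brightest of its 6 probe sets, a call that was lost with any 1 array left out. Another mbl probe set changed by 0.82 ± 0.18 (adjusted p = 0.0151 in limma), a call lost without the first control array, and the other 4 were not called. Mef2, the gene of a central activator of muscle genes, had no single-gene probe set. Of 11 myoblast fusion genes only blow was called, with -0.54 ± 0.14, and that call was lost without any 1 of the 3 mutant arrays. Of 9 genes of energy supply 1 rose and 4 fell, with a median of -0.33, led by Gpdh1 (0.64 ± 0.19), Pgk (-0.49 ± 0.12), Gapdh1 (-0.46 ± 0.12), Pglym78 (-0.39 ± 0.11) and Tpi (-0.36 ± 0.10). These enzymes serve many tissues. Of the 4 Gpdh1 probe sets 3 were not called, with differences from 0.27 to 0.62. No gene of this list was called without the first mutant array, and none without the third control array.

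Of 5 genes listed for flight muscle, Act88F and TpnC4 rose, and salm (0.22 ± 0.13), fln (-0.11 ± 0.09) and Strn-Mlck (-0.23 ± 0.11) were not called. The list held 2 rises and 0 falls, against 11.3% and 13.4% over all genes, and TpnC4 and fln were dim.

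**Figure D4:**
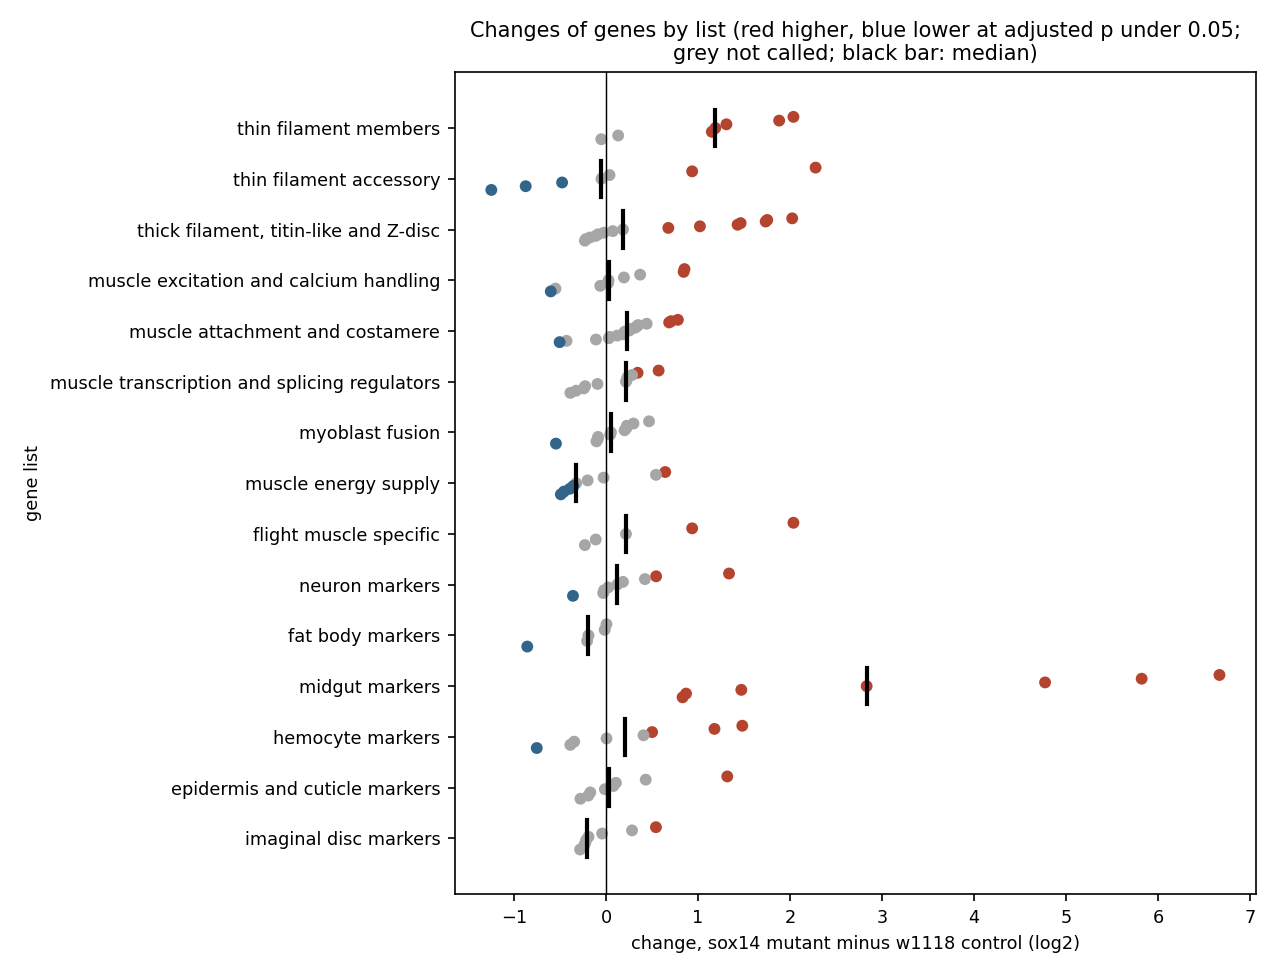
Change of each measured gene on the log2 scale, sox14 mutant minus w1118 control, by list (rows), with 1 probe set per gene. Red points were called higher, blue points lower and grey points were not called at an adjusted p of 0.05, and black bars are list medians. The thin filament genes have a median of 1.19, the thick filament and Z-disc genes 0.18 and the midgut markers 2.83.

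Markers of other cell types of the whole animal were read in the same way, against 11.3% of all genes called higher and 13.4% lower. Of 7 midgut genes all 7 rose, with a median of 2.83, and the mean of their log2 values was 12.59 to 12.75 on the mutant arrays and 9.24 to 9.47 on the control arrays; epsilonTry (6.66 ± 0.19), betaTry (5.82 ± 0.17), Jon44E (4.77 ± 0.23) and Mal-A1 (2.83 ± 0.15) led them. Mal-A1 lay in the low range on all 3 control arrays. Of 8 hemocyte markers 3 rose and 1 fell, with a median of 0.21 and means of 8.41 to 8.42 in the mutant and 8.06 to 8.23 in the control, led by eater (1.48 ± 0.12) and He (1.18 ± 0.13), with NimC1 at 0.50 ± 0.15 and PPO1 at -0.75 ± 0.14. Of 9 neuron markers 2 rose and 1 fell, with a median of 0.12 and means of 6.96 to 7.08 in the mutant and 6.76 to 6.83 in the control; Snap25 changed by 1.34 ± 0.13, cac by 0.54 ± 0.16 and nSyb by -0.36 ± 0.10. The calls of NimC1, cac and nSyb were each lost without the first or the second mutant array or the first control array, among others.

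In each of the other marker lists 1 gene was called. Of 5 fat body markers only Fbp2 was called, with -0.86 ± 0.11, the median was -0.19, and the means were 12.71 to 12.75 in the mutant and 12.95 to 13.01 in the control. Of 8 epidermis and cuticle markers only Cpr65Ec was called, with 1.32 ± 0.15, the median was 0.03, and the means were 7.17 to 7.30 in the mutant and 7.04 to 7.09 in the control. Of 8 imaginal disc markers only nub was called, with 0.54 ± 0.16. That call was lost without any 1 mutant array and without the first or the third control array. The other nub probe sets, at -0.17 and -0.07 and in the low range, were not called. The median of the disc markers was -0.20, and the means were 8.23 to 8.29 in the mutant and 8.27 to 8.37 in the control. The mean of the 7 thin filament genes was 8.75 to 8.85 in the mutant and 7.63 to 7.76 in the control. The 7 listed midgut genes were thus higher in the same animals as the thin filament genes, with a larger median change. They were chosen with earlier results of these data known and do not stand for all midgut genes. The part of tissue composition in the rises was not tested.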

How the data were processed

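Labelled RNA of whole prepupae was hybridised to 3 arrays per genotype. Per the submitters' processing notes, the authors ran RMA in Affymetrix Expression Console 1.1, and the deposited values are log2. A genome build is not stated here for the array's design.

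Of 18952 probe sets, 183 Affymetrix controls stayed outside the tests. Among the 18769 tested, 13647 named 1 gene, 402 several and 4720 none. By gene identifier, 13544 of the single-gene probe sets matched RefSeq, which changed 0 symbols. The probe set with the highest mean stood for a gene. The 2-sided test was limma 3.58.1 (lmFit, eBayes; R 4.3.3), and adjusted p-values cover all tested probe sets. The fit was tested on simulated data. Members and lists were chosen with earlier results of these data known. All members were named, with up to 4 called genes of each list with the largest changes, or 2 where none was called; further genes named here, among them tsr, flr, fln, salm, Strn-Mlck, Prm, Mf, sls and the Z-disc genes, were chosen after their values were seen. So was the low range, without 3 AFFX-Dm controls called higher in the mutant. The alternatives were the replicate number as a block, arrays centred on their medians, quantile normalisation, eBayes with a trended and robust variance, weights per array, the dimmest 40% of probe sets removed before the fit, a threshold of 0.01, means of a gene's probe sets and leaving out each array. Promoter motifs were not analysed here.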

Additional observations from a re-analysis of the deposited data

How the results depend on the processing

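The count of thin filament genes called higher was 5, and called lower 0, under every alternative run. The changes of the 5 ranged from 1.90 to 2.23 in Act88F, 1.79 to 1.97 in Tm2, 1.10 to 1.47 in Act87E, 1.10 to 1.25 in up and 1.11 to 1.17 in TpnC73F, and their largest adjusted p in limma was 0.00531, for Act87E. Act79B and the dimmer TpnC73F probe set were called under none. TpnC41C ranged from -0.14 to 0.064 with arrays left out, with the sign turned to 0.015 without the second mutant array and to 0.064 without the third control array, and was never called. These 3 probe sets are among the dimmest 40%, so that filter gave them no value. The reading of TpnC73F changed by 1.20 more than that of TpnC41C, which lay in the low range throughout, and by 0.75 more with the mean of the 2 TpnC73F probe sets. Over all probe sets, 963 were called higher and 1000 lower at a threshold of 0.01, against 1621 and 1956 at 0.05. With arrays centred on their medians 1458 were called higher and 2390 lower. With each array left out in turn, 1167 to 1595 were called higher and 1326 to 1673 lower. The replicate block gave 1501 higher and 1775 lower and changed no call of a thin filament probe set; deviations of same-numbered arrays correlated at 0.17, -0.10 and -0.02, so the numbers were not taken as pairs. Median centring placed the median change of all genes at -0.07. Array number and signal near the low range limit what can be read from TpnC41C, Act79B and the second TpnC73F probe set.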
